A study of Mus musculus with 6 samples.

Results

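A set of 10 genes that mark the primed epiblast or act at the onset of gastrulation were followed by their DNA methylation: Fgf5, Otx2, Pou3f1, T, Eomes, Wnt3, Nodal, Lefty1, Lefty2 and Mixl1. They were listed by name, with earlier results of these data known, and are 10 of 21755 protein-coding genes of the autosomes and the X chromosome. For each gene CpG methylation was read over the promoter (from -1000 to +100 bp of the start of 1 reference transcript), over the gene body, and in 2 kb tiles from 50 kb before the gene to 50 kb after it. The loci held 538 such tiles with reads, of which 431 had at least 40 CpG observations in each library and were tested. Lefty2 and Lefty1 lie close together on chromosome 1, so that tiles between them belong to both loci and were counted once in totals over the genes.

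The libraries were whole-genome bisulfite libraries made by post-bisulfite adaptor tagging, with 2 biological replicates in each of 3 groups, all labelled as wild type and strain 129S2/SvPasCrl and described by the study as female lines. The study's methods differ from the strain and wild-type labels, since lines were derived there from matings with transgenic males of a mixed background. ASCs (advanced pluripotent stem cells) came from blastocyst-derived lines first kept in activin A and bFGF and then in N2B27 medium with activin A, BMP4, CHIR99021 and LIF. The study started from lines with a GOF-GFP or a Stella-GFP reporter. Its methods describe picking clones positive for GOF-GFP, so that such a line is a selected one. Which ASC line gave these libraries is not stated in the sources used here. ESCs were naive embryonic stem cells kept in 2i/LIF, and EpiSCs were epiblast stem cells, the primed state of postimplantation epiblast. The sources used here do not say whether the replicates were separate lines or cultures of 1 line, so p-values speak of these samples only and not of other lines.

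CpG methylation is added by DNA methyltransferases, which are strongly active when the epiblast implants, while naive cells in 2i/LIF keep little of it. Starts of most developmental genes lie in CpG-rich stretches that stay unmethylated whether or not the gene is transcribed, and methylation that differs between cell states is found more often at enhancers, in gene bodies and at CpG-poor promoters. The genes described here carry the signals and transcription factors of that stage. Nodal is a secreted TGF-beta family ligand that patterns the epiblast, Lefty1 and Lefty2 are secreted inhibitors of Nodal and are themselves Nodal targets, and Wnt3 is the ligand that the primitive streak requires. Fgf5 is a secreted growth factor and a classic marker of primed cells, Otx2 and Pou3f1 are transcription factors that rise on exit from the naive state, and T, Eomes and Mixl1 are transcription factors of the primitive streak and of mesendoderm.

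The 6 libraries held between 63803799 and 74925271 reads over CpG sites, a mean of 2.96 to 3.46 reads per site. EpiSC replicate 2 was the thinnest, with 19.9% of sites without a read against 16.2% to 17.4% in the others. Overall methylation was 59.8% and 60.2% in ASCs, 81% and 80.2% in EpiSCs and 17.9% and 18.2% in ESCs. The promoters of Zfp42 and Tcl1, markers of the naive state used here as a check of the labels, were at 0% to 5.56% in ASCs and ESCs and at 93.5% to 97.8% in EpiSCs. A region was called different when the adjusted p of a two-sided moderated quasi-binomial test, corrected over all regions of its kind, was below 0.05 with at least 20 percentage points between the mean levels of the groups.

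All 10 promoters had enough reads, between 66 and 563 observations per library. At 5 of them, Fgf5, Otx2, T, Eomes and Wnt3, every library was under 7%, in primed and in naive cells alike. Both Lefty2 and Nodal were lower in ASCs than in EpiSCs, so that 2 of 10 promoters were called in that direction, beside 24.3% of all 14429 promoters tested. No promoter of the 10 was called higher in ASCs than in EpiSCs, beside 0.159% of all, and this count was 0 as well at an unadjusted p under 0.05 and with limma on M values. In EpiSCs against ESCs, 3 of 10 were called higher (Lefty2, Nodal and Pou3f1), beside 37.0% of all. Between ASCs and ESCs none was called, beside 17.3% of all promoters called higher in ASCs and 0% called lower. One, Pou3f1, was 8.5 points higher in ASCs (adjusted p = 0.00655), under the size required, and limma called 0 with that size.

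**Figure D1:**
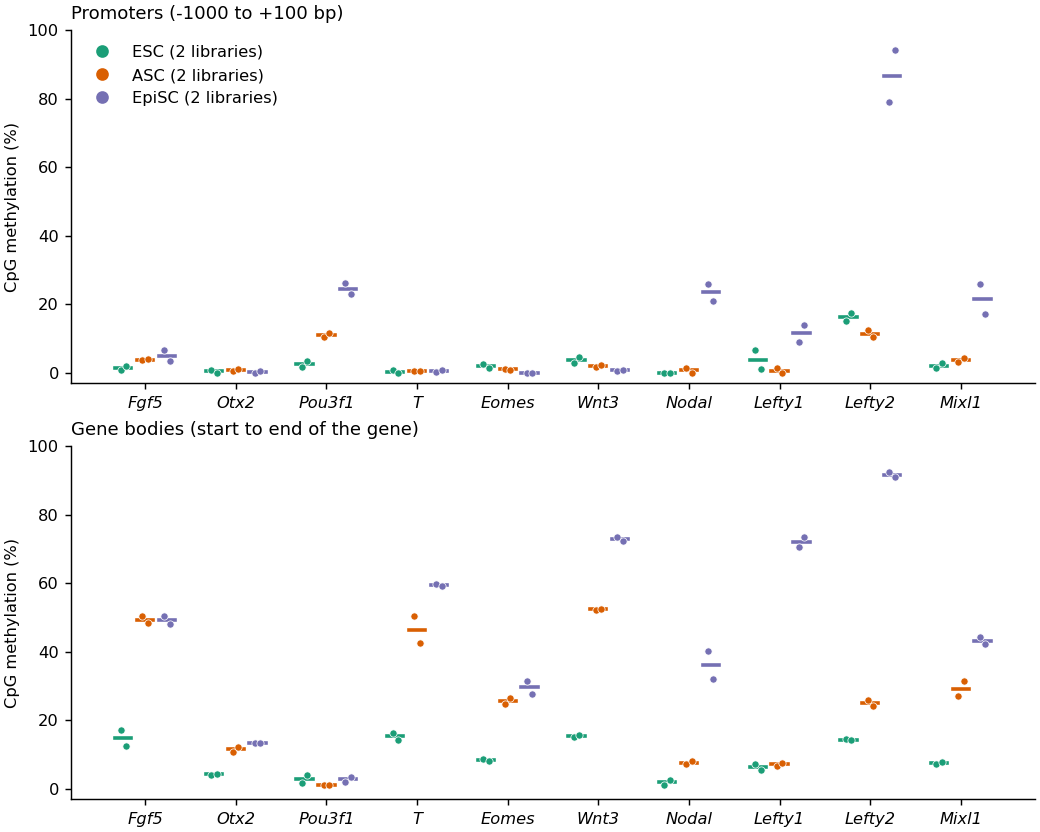
CpG methylation (%, y axis) of the promoter (upper panel) and the gene body (lower panel) of each gene in ESCs (green), ASCs (orange) and EpiSCs (purple). Each point is a library and each bar the mean of 2 libraries. The Lefty2 promoter stands at 79.1% and 94.1% in EpiSCs and under 18% in the other 4 libraries, and the gene bodies of Nodal, Lefty1 and Lefty2 are likewise lower in ASCs and ESCs than in EpiSCs.

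The Lefty2 gene (ENSMUSG00000066652.5, chr1:180893108-180899103, plus strand, GRCm38) had the largest promoter difference of the 10. The promoter read 12.5% and 10.3% in the ASC libraries, 15.1% and 17.4% in the ESC libraries, and 79.1% and 94.1% in the EpiSC libraries. The 2 ASC libraries were below both ESC libraries and far below both EpiSC libraries. ASCs were 75.2 points lower than EpiSCs (adjusted p = 8.06e-06), and 4.88 points lower than ESCs, which did not pass the test (adjusted p = 0.438). The difference between ASCs and EpiSCs lay between 67.7 and 82.7 points lower when any 1 library was left out.

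Within the Lefty2 gene the largest difference of the whole set fell in the tile 1.9 kb after the start, which covers exons. It read 93.8% and 94.2% in EpiSCs, 1.78% and 1.97% in ASCs and 6.77% and 6.04% in ESCs, from 182 to 356 observations per library. ASCs were 92.1 points lower than EpiSCs (adjusted p = 4.82e-61) and 4.54 points lower than ESCs (adjusted p = 0.00152), a difference under the 20 points required. The next tiles of the gene did not share this: at 3.9 kb ASCs read 64% and 69.5% and ESCs 29.1% and 24%, and at 5.9 kb ASCs read 48.1% and 56.2% and ESCs 25.7% and 18.7%. In EpiSCs the 3 tiles read between 87.3% and 94.2%. Low methylation of ASCs in Lefty2 was thus found in its 5′ part, and the gene body as a whole read 26% and 24.1% in ASCs, 92.4% and 91.1% in EpiSCs and 14.4% and 14.3% in ESCs.

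Lefty1 (ENSMUSG00000038793.8, chr1:180935022-180938400, plus strand) is the near neighbour and close relative of Lefty2, and its promoter differed much less. It read 9.09% and 13.8% in EpiSCs, 1.23% and 0% in ASCs and 6.59% and 1.06% in ESCs, and the 10.8 points between ASCs and EpiSCs (adjusted p = 0.00939) stayed under the size required. In ASC replicate 2, 0 of 104 observations allowed a level of up to 2.88%. Over the gene body ASCs and ESCs were far below EpiSCs, as at Lefty2, with 6.68% and 7.62% in ASCs, 70.7% and 73.4% in EpiSCs and 7.29% and 5.52% in ESCs. ASCs were 64.9 points lower than EpiSCs (adjusted p = 9.64e-10), while ASCs and ESCs differed by 0.743 points (adjusted p = 0.726). The tile 2.0 kb after the start, named after its value was seen, read 82% and 85.7% in EpiSCs, 3.97% and 5.91% in ASCs and 4.36% and 5.53% in ESCs.

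The 2 genes share sequence, since 9.94% of the 50-base stretches of the Lefty1 gene also occur in Lefty2. The tiles of these large differences are part of this, since the CpG-richest 300 bases of the tile at 1.9 kb in Lefty2 and of that at 2.0 kb in Lefty1 are 97% identical. Reads from such stretches can be placed at the wrong gene or left out, and how far this touched the values was not tested.

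Before the Lefty2 start lay further tiles in which ASCs were near ESCs. The tile at -6.1 kb read 14.7% and 21.5% in ASCs, 94% and 96.4% in EpiSCs and 20.4% and 21.2% in ESCs, and in that at -8.1 kb ASCs read 18.4% and 9.52%, ESCs 19.5% and 15.4%, and EpiSCs 91% and 92.6%. In the tiles at 3.9 and 5.9 kb, by contrast, ASCs lay between ESCs and EpiSCs.

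**Figure D2:**
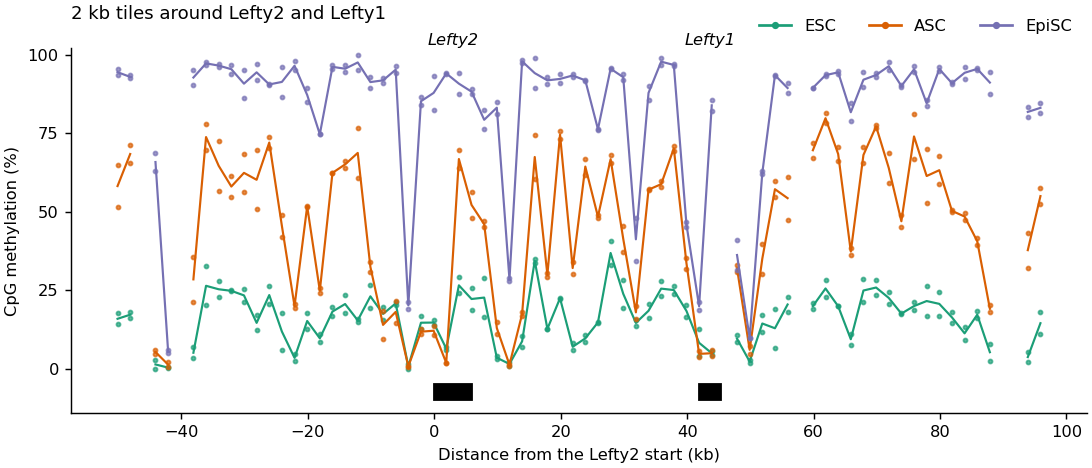
CpG methylation (%, y axis) of tested 2 kb tiles by distance from the Lefty2 start (kb, x axis) in ESCs (green), ASCs (orange) and EpiSCs (purple), with a point for each library, a line through the group means where tiles adjoin, and black boxes for the Lefty2 and Lefty1 genes. In the tiles at -8.1, -6.1 and 1.9 kb, and in that 2.0 kb after the Lefty1 start, ASCs are near ESCs and EpiSCs above 80%.

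At Nodal (ENSMUSG00000037171.6, chr10:61417972-61425338, plus strand) the promoter read 1.37% and 0% in ASCs, 0% in both ESC libraries, and 26% and 20.9% in EpiSCs. With 66 and 67 observations, the 0% in ESCs allowed levels of up to 4.55% and 4.48%. ASCs were 22.7 points lower than EpiSCs (adjusted p = 0.0006). This call depended on the window: from -500 to +500 bp the difference was 8.26 points lower (adjusted p = 0.00283), under the size required, and that window takes in the 500 bp after the start, which read 0% and 1.17% in EpiSCs. The tile centred 1.0 kb after the start read 2.34% and 2.22% in EpiSCs, 0.713% and 0.879% in ASCs and 0.229% and 0.632% in ESCs.

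Further into the gene the groups parted. At 3.0 kb, in an intron, ASCs read 11.2% and 5.26%, ESCs 2.98% and 5%, and EpiSCs 82.8% and 89.4%. At 5.0 kb, over an exon, ASCs read 11.7% and 16.1%, ESCs 2.72% and 5.26%, and EpiSCs 94.8% and 90.1%. The whole gene body averaged over both kinds of stretch and read 40.2% and 31.9% in EpiSCs, 7.32% and 7.95% in ASCs and 1.16% and 2.64% in ESCs. ASCs were 28.4 points lower than EpiSCs over the whole body (adjusted p = 2.37e-07) and 74.6 points lower once its first 2 kb were left out. The 300 bases richest in CpG of the tile at 5.0 kb (chr10:61422924-61423223, 12 CpG sites in capitals, overlapping an exon, read from GRCm38.p6 on the plus strand outside annotated UTRs) read 15% and 15.4% in ASCs, 95.3% and 97.1% in EpiSCs and 2.63% and 5.66% in ESCs.
Nodal: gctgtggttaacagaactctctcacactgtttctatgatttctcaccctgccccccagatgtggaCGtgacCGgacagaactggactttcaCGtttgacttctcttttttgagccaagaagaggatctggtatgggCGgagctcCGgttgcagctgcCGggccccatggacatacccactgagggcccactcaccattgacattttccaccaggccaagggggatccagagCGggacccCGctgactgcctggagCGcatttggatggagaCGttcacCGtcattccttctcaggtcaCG

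The largest difference of the Nodal locus lay outside the gene, 43.0 kb before its start and in an intron of Pald1. It read 95.6% and 96.4% in EpiSCs, 11.7% and 12.6% in ASCs and 0.699% and 4.4% in ESCs, 83.9 points lower in ASCs than in EpiSCs (adjusted p = 8.24e-37). A tile 31.0 kb after the start, in an intron of Eif4ebp2, had the same order, since ASCs read 11.1% and 12.7%, ESCs 4.94% and 6.13%, and EpiSCs 96.2% and 91%. Of 52 tested tiles at Nodal, 42 (80.8%) were lower in ASCs than in EpiSCs, beside 53.5% of all tiles. Of these, 6 (11.5% of the tested tiles) were within 10 points of ESCs, beside 2.13% of all, a limit set after the values were seen.

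Wnt3 (ENSMUSG00000000125.5, chr11:103774150-103817957, plus strand) differed in another way, between its start and the rest of the gene. Its promoter was under 5% in each library, at 1.65% and 2.3% in ASCs, 0.432% and 0.888% in EpiSCs and 2.95% and 4.67% in ESCs. In the tile 0.9 kb after the start ASCs were the highest group, with 20.4% and 23.2% against 4.15% and 5.44% in EpiSCs and 7.35% and 10.5% in ESCs. This was 17 points more than in EpiSCs (adjusted p = 3.18e-14), under the size required. The gene body read 73.4% and 72.2% in EpiSCs, 52.3% and 52.4% in ASCs and 15.1% and 15.6% in ESCs, 20.4 points lower in ASCs than in EpiSCs (adjusted p = 5.82e-10). Without EpiSC replicate 1 that difference was 19.9 points and no longer reached the size required.

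One stretch inside Wnt3 stood apart from the rest of the gene. In the tile 20.9 kb after the start, in an intron, ASCs read 18% and 27.5%, ESCs 4.21% and 4.46% and EpiSCs 96.3% and 95.3%, 73 points lower in ASCs than in EpiSCs (adjusted p = 1.73e-39). The tiles on either side, at 18.9 and 22.9 kb, read between 57.6% and 77% in ASCs. Closer to the 3′ end, at 38.9 kb and over an exon, ASCs read 45.5% and 42%, ESCs 7.6% and 8.64% and EpiSCs 95.7% and 94.1%.

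Fgf5 (ENSMUSG00000029337.2, chr5:98254184-98277030, plus strand) had the lowest share of locus tiles called lower in ASCs than in EpiSCs, 36.4% beside 53.5% of all tiles. Its promoter read 3.64% and 4% in ASCs, 6.6% and 3.41% in EpiSCs and 0.709% and 1.89% in ESCs, and the 1.19 points by which ASCs were lower than EpiSCs did not pass the test (adjusted p = 0.561). Its gene body read 50.3% and 48.3% in ASCs against 50.4% and 48.2% in EpiSCs (adjusted p = 0.971) and 17.1% and 12.6% in ESCs, so that the 2 methylated groups overlapped while ASCs were 34.5 points above ESCs (adjusted p = 1.17e-08). Without its first 2 kb, which hold the unmethylated start, the body read 72.9% and 69.8% in ASCs against 87.9% and 86.8% in EpiSCs, a difference of 16 points.

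Downstream of Fgf5 lay the single tile of the 431 that was called higher in ASCs than in EpiSCs, beside 0.100% of all 445422 tiles tested. It is centred 38.8 kb after the start and 14971 bp from the end of the gene, in intergenic sequence. It read 5.6% and 7.09% in EpiSCs, 42.4% and 52.7% in ASCs and 17.6% and 17.8% in ESCs, from 66 to 135 observations per library. The difference was 41.2 points (adjusted p = 6.01e-15), ASCs were also 29.9 points above ESCs (adjusted p = 1.13e-08), and EpiSCs were 11.4 points below ESCs (adjusted p = 0.000856), under the size required. ASCs were thus the highest group here and EpiSCs the lowest. The 300 bases of that tile richest in CpG (chr5:98292764-98293063, 12 CpG sites in capitals, 11 to 54 observations) read 36.4% and 45.1% in ASCs, 2.27% and 0% in EpiSCs and 14.7% and 14.8% in ESCs, where the depth is low. It is shown above the 250 bases before the Fgf5 start (RefSeq, GRCm38.p6, chr5:98253934-98254183, 24 CpG sites in capitals), which read at most 1.05% in any library and thus show the CpG density of a start that was unmethylated in all 3 groups.
Fgf5 downstream: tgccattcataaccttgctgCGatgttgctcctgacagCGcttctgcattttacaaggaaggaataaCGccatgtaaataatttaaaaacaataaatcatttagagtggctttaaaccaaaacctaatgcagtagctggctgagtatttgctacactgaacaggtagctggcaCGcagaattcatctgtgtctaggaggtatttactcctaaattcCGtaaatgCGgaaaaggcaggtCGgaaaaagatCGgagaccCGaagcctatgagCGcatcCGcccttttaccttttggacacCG
Fgf5 promoter: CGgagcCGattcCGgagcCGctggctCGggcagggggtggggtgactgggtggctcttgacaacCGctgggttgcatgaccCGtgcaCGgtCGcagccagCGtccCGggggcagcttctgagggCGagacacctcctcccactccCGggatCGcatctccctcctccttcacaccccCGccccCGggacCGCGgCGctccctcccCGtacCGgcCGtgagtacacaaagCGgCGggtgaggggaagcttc

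Eomes (ENSMUSG00000032446.14, chr9:118478212-118486132, plus strand) had an unmethylated promoter in all groups, at 1.21% and 0.806% in ASCs, 2.46% and 1.46% in ESCs and 0% in both EpiSC libraries, where 0 of 177 and 0 of 204 observations allowed up to 1.69% and 1.47%. The gene body read 31.5% and 27.6% in EpiSCs, 24.7% and 26.6% in ASCs and 8.53% and 8.14% in ESCs, 3.91 points lower in ASCs than in EpiSCs (adjusted p = 0.0706). Inside it, the tile at 4.7 kb was far lower in ASCs, at 35.9% and 37.6% against 97.2% and 92.2% in EpiSCs and 19.2% and 19.1% in ESCs. The largest difference of the locus lay 18.7 kb after the start, in intergenic sequence 8267 bp from Golga4. There ASCs read 5.88% and 5.63%, ESCs 1.09% and 1.27%, and EpiSCs 77.6% and 78.6%, 72.3 points lower in ASCs than in EpiSCs (adjusted p = 2.19e-19) and 4.58 points above ESCs (adjusted p = 0.0503). Its CpG-richest 300 bases (chr9:118496611-118496910, 6 CpG sites in capitals, 27 to 42 observations) read 0% in both ASC libraries, 2.38% and 0% in ESCs and 65.6% and 74.1% in EpiSCs, and are CpG-poor beside the windows above.
Eomes downstream: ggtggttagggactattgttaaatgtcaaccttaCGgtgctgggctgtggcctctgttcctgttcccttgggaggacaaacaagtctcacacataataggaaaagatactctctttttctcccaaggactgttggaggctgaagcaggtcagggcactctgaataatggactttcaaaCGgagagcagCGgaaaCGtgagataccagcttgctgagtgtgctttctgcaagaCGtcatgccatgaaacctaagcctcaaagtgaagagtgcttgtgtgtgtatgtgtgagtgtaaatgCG

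Otx2 (ENSMUSG00000021848.16, chr14:48657677-48673819, minus strand) has several annotated starts. The reference promoter read at most 1.2% in any library. The outermost start, 8.7 kb further upstream, was unmethylated in ASCs (1.75% and 0.369%) and ESCs (0.345% and 0.676%) and partly methylated in EpiSCs (15.4% and 22.1%), while at an inner pair of starts ASCs were the highest group, with 20.8% and 21.4% against 10.4% and 7.55% in ESCs and 11.5% and 10.2% in EpiSCs. With the outermost start taken for every gene, Otx2 was 17.7 points lower in ASCs than in EpiSCs (adjusted p = 8.36e-05) and 18.3 points higher in EpiSCs than in ESCs (adjusted p = 1.26e-05), both under the size required. The inner starts are given without a test. The gene body was low in all groups, at 10.8% and 12.2% in ASCs, 13.3% and 13.2% in EpiSCs and 4.08% and 4.35% in ESCs. The flanks were not: 51.9 kb before the start, in intergenic sequence, ASCs read 25.8% and 16.9%, ESCs 3.49% and 2.17% and EpiSCs 95.1% and 96.4%, 74.4 points lower in ASCs than in EpiSCs (adjusted p = 6.34e-19). At 12.1 kb after the start ASCs read 2.04% and 3.7%, ESCs 1.42% and 0%, and EpiSCs 59.1% and 49.6%.

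**Figure D3:**
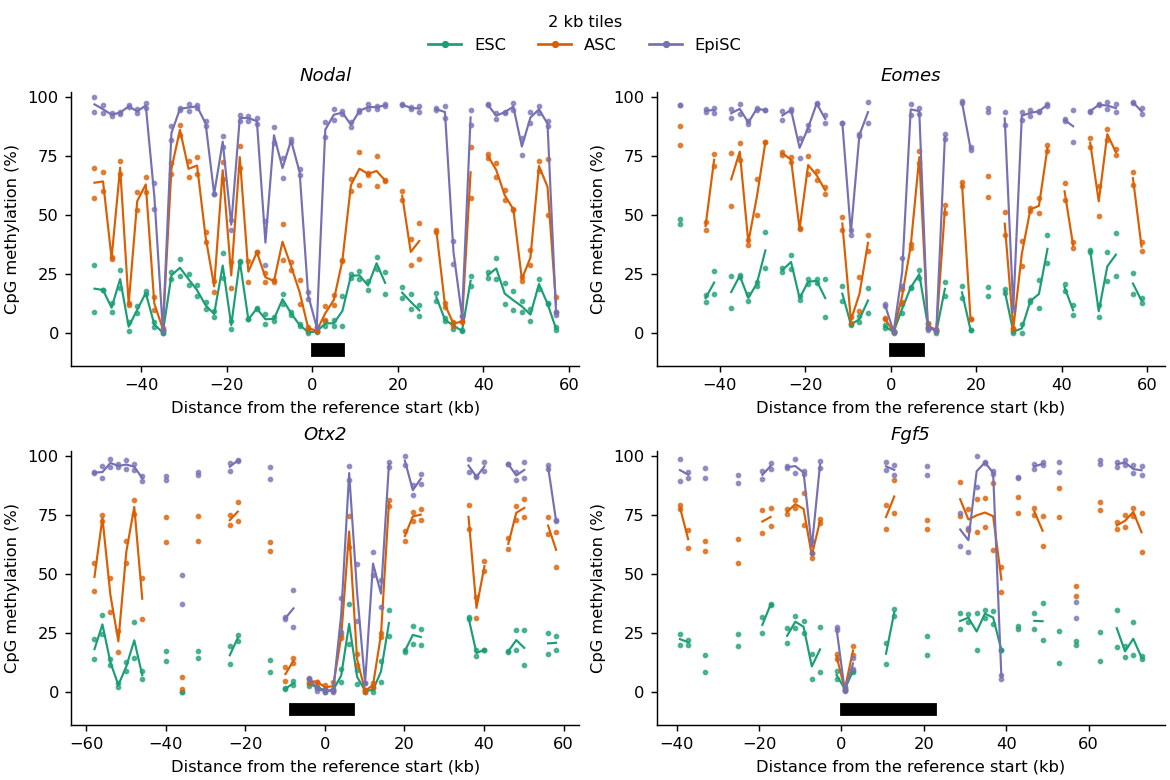
CpG methylation (%, y axis) of tested 2 kb tiles by distance from the reference start (kb, x axis, in the direction of transcription) at Nodal, Eomes, Otx2 and Fgf5 in ESCs (green), ASCs (orange) and EpiSCs (purple). Points are libraries, lines join group means of adjoining tiles and black boxes mark the genes. ASCs lie far below EpiSCs and nearer to ESCs inside Nodal and 18.7 kb after the Eomes start, and lie above EpiSCs at the single tile 38.8 kb after the Fgf5 start.

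Pou3f1 (ENSMUSG00000090125.3, chr4:124656807-124660655, plus strand), which encodes the POU factor Oct6, had the most graded promoter. It read 1.53% and 3.28% in ESCs, 10.3% and 11.5% in ASCs against 26.1% and 22.9% in EpiSCs, with no overlap between groups. ASCs were 13.6 points lower than EpiSCs (adjusted p = 0.00401) and 8.5 points above ESCs (adjusted p = 0.00655), both under the size required, and EpiSCs were 22.1 points above ESCs (adjusted p = 2.01e-05). From -500 to +500 bp the last difference was 7.13 points. The gene body stayed under 4% in each library. The tile 49.8 kb before the start, in intergenic sequence, read 93.4% and 94.1% in EpiSCs, 38.3% and 33.3% in ASCs and 3.23% and 8.91% in ESCs.

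At T (ENSMUSG00000062327.10, chr17:8434423-8442496, plus strand), the gene of brachyury, no library exceeded 0.913% at the promoter. The body read 50.3% and 42.6% in ASCs, 59.9% and 59.1% in EpiSCs and 16.3% and 14.2% in ESCs, 13.1 points lower in ASCs than in EpiSCs (adjusted p = 0.000693). The 4 tiles past its start region were at 61.8% to 76% in ASCs, below the 88.9% to 95.8% of EpiSCs. Its largest difference lay 37.4 kb before the start, over an exon of the neighbour T2, with 89.2% and 91.2% in EpiSCs, 25.4% and 47.9% in ASCs and 18.9% and 13.6% in ESCs. The 2 ASC libraries were far apart there, and the 20.4 points by which ASCs exceeded ESCs (adjusted p = 1.55e-05) became 9.17 (adjusted p = 0.102) without ASC replicate 2 and 17.7 without ESC replicate 2.

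Mixl1 (ENSMUSG00000026497.7, chr1:180693043-180697034, minus strand), a homeobox gene of the streak, read 3.18% and 4.29% in ASCs, 25.8% and 17.1% in EpiSCs and 1.25% and 2.8% in ESCs at its promoter. ASCs were 17.7 points lower than EpiSCs (adjusted p = 0.000305), under the size required, and 22.1 points lower without EpiSC replicate 2. The gene body read 44.2% and 42.2% in EpiSCs, 27% and 31.5% in ASCs and 7.33% and 7.66% in ESCs. In the tile 32.0 kb before the start, over an exon of Acbd3, ASCs read 42.9% and 38.7%, ESCs 8.51% and 4.92% and EpiSCs 91.4% and 88.6%.

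Over gene bodies, 4 of 10 (Lefty2, Lefty1, Nodal and Wnt3) were lower in ASCs than in EpiSCs, beside 54.7% of all 19747 gene bodies tested, and none was higher, beside 0.0253% of all, with 0 as well at an unadjusted p under 0.05 and with limma. Against ESCs, 4 of 10 were higher in ASCs (Wnt3, Fgf5, T and Mixl1), beside 86.8% of all, and 8 of 10 were higher in EpiSCs, beside 95.8% of all. The pair not called in EpiSCs was Otx2, 9 points higher (adjusted p = 1.34e-06), and Pou3f1, 0.0177 points higher (adjusted p = 0.797). With the first 2 kb left out, 7 of 10 were lower in ASCs than in EpiSCs, beside 76.3% of all 18015 gene bodies tested in that way. Eomes was then 30 points lower, T 24.7 and Mixl1 41.1 points lower, while the difference at Lefty2 was smaller than over its whole body, 28.1 against 66.7 points lower.

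Over the 431 tiles of the loci the median level was 60% and 60.7% in the ASC libraries, 16.5% and 17.4% in the ESC libraries and 91.5% and 91.8% in the EpiSC libraries, beside 68.8% and 69%, 19.4% and 19.7%, and 92.1% in both over all tiles. ASCs were lower than EpiSCs in 273 of 431 tiles (63.3%), beside 53.5% of all tiles. They were higher than ESCs in 340 (78.9%), beside 91.1% of all, and EpiSCs were higher than ESCs in 390 (90.5%), beside 96.5% of all. No tile of the loci was called lower in ASCs than in ESCs by the quasi-binomial test, as was none of all 445422 tiles, nor by limma. With no size required, 2 tiles of the loci were lower at an adjusted p under 0.05. Placed on a scale from 0 at the ESC mean to 1 at the EpiSC mean, for tiles whose ESC and EpiSC means differed by at least 40 points, the median ASC position was 0.632 in 367 tiles of the loci and 0.691 in all 421820 such tiles.

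The loci were not alike. Lefty2 had 43 of 51 tiles lower in ASCs than in EpiSCs (84.3%), Lefty1 40 of 49 (81.6%) and Nodal 42 of 52 (80.8%), and their ASC positions on that scale were 0.471, 0.458 and 0.516. T had 28 of 43 (65.1%), Eomes 27 of 43 (62.8%), Pou3f1 31 of 51 (60.8%) and Otx2 22 of 37 (59.5%). Wnt3 had 37 of 70 (52.9%) and Mixl1 17 of 34 (50%), near the share of all tiles, and Fgf5 had 12 of 33 (36.4%), below it, with an ASC position of 0.703. The first 3 loci, of the ligand Nodal and its inhibitors, thus held the highest shares, though Lefty1 and Lefty2 have 32 tested tiles in common, of which 26 were lower in ASCs than in EpiSCs.

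In 27 of the 431 tiles (6.26%) ASCs were called lower than EpiSCs, EpiSCs were called higher than ESCs, and the ASC and ESC means were within 10 points, beside 2.13% of all tiles. The 10-point limit was set after the values were seen, and the share is a description. Lefty2 held 12 of them, Lefty1 10, Nodal 6, Otx2 5, Eomes 2, Pou3f1 1 and Wnt3 1, and Fgf5, T and Mixl1 held 0. Each of the 10 tiles of Lefty1 was also a tile of Lefty2. The median level of the 27 was 10.7% and 9.52% in ASCs, 77.6% and 78.6% in EpiSCs and 3.23% and 4.39% in ESCs. Few tiles were low in primed cells: 36 (8.35%, beside 3.09% of all) were under 20% in EpiSCs, with a median of 79 CpG sites against 26 over all 431, and 27 of the 36 overlapped the promoter of a gene. The 3 tiles with the highest ESC level lay 49.3 kb before Eomes (46.3% and 48.1% in ESCs) and 86.9 and 74.9 kb after the Wnt3 start, over exons of Nsf (43.7% and 39.3%, and 40.4% and 41.1%).

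**Figure D4:**
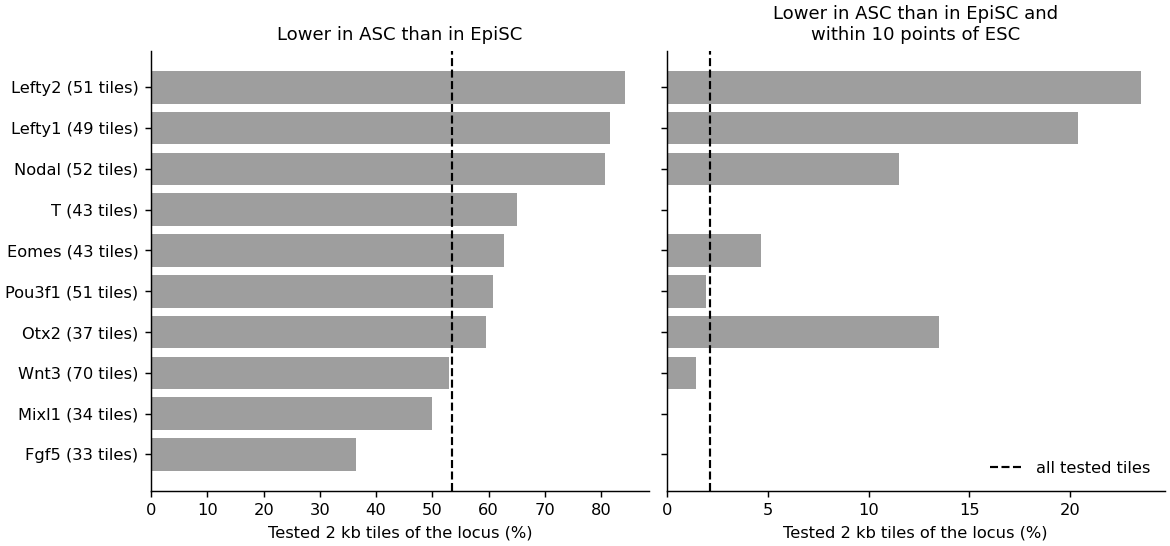
Share of the tested 2 kb tiles of each locus (%, x axis) that were lower in ASCs than in EpiSCs (left panel) and that in addition lay within 10 points of ESCs (right panel), with the number of tested tiles beside each gene. The dashed lines give the share over all tested tiles, 53.5% and 2.13%. The Lefty2, Lefty1 and Nodal loci lie highest on the left, at 80.8% to 84.3%, and Lefty1 and Lefty2 share tiles.

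The extent of the low region around each start was measured in 500 bp bins, walking outwards from the start up to 10 kb on either side until a bin reached 30%, with bins of under 20 observations passed over. At Nodal it spanned 12 and 11 kb in ASCs and 2.0 kb in both EpiSC libraries. At Lefty1 it spanned 5.5 and 5.0 kb in ASCs and 1.5 and 2.0 kb in EpiSCs, and at Lefty2 11.5 and 3.0 kb in ASCs and 0.0 kb in EpiSCs, whose start bins were already over 30%. Mixl1 had 2.0 kb in both ASC libraries and 1.0 kb in both EpiSC libraries, and Fgf5 had 4.0 kb in both ASC libraries and 3.0 kb in both EpiSC libraries. In contrast Pou3f1 had 4.0 kb and Otx2 9.0 kb in all ASC and EpiSC libraries, and T, Eomes and Wnt3 overlapped, at 3.0 to 3.5 kb, 4.5 to 6.0 kb and 4.0 to 4.5 kb. The ESC libraries spanned 12.5 and 9.5 kb at Mixl1, 15.5 and 9.5 kb at Fgf5 and 9.5 and 11.0 kb at Pou3f1. They spanned 19.5 and 13.0 kb at Nodal, 13.5 and 12.5 kb at Lefty1 and 11.5 and 5.5 kb at Lefty2. Some ESC widths at Otx2, Pou3f1, Eomes, Nodal, Lefty1 and Mixl1 were cut off at the 10 kb limit. Some widths depended on the settings. When bins with 10 or more observations were also read, Nodal became 7.5 and 6.5 kb in ASCs, and Otx2 7.0 and 9.5 kb in ASCs and 9.0 and 7.0 kb in EpiSCs. Wnt3 then no longer overlapped and was narrower in ASCs, at 4.0 kb in both libraries against 4.5 kb in both EpiSC libraries. With a limit of 50%, Nodal became 13.0 and 12.5 kb in ASCs and 4.0 kb in both EpiSC libraries. Lefty2 became 10.5 kb in ASC replicate 2, and Otx2 became 13.5 kb in ASC replicate 1. Eomes no longer overlapped at that limit, at 14.0 and 6.0 kb in ASCs against 4.5 and 5.0 kb in EpiSCs. The 14.0 kb of ASC replicate 1 ran to the 10 kb limit and passed over bins of few observations that read up to 100%.

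**Figure D5:**
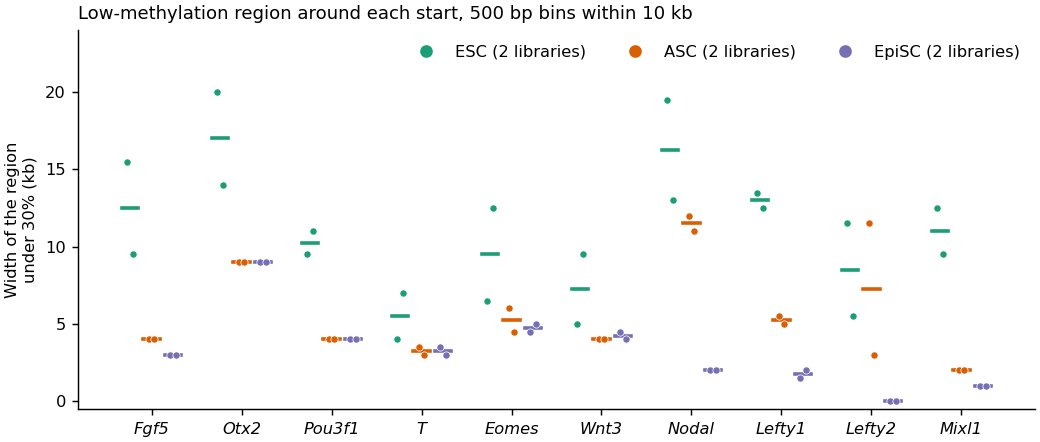
Width of the low-methylation region around each reference start (kb, y axis) for each gene (x axis) in ESCs (green), ASCs (orange) and EpiSCs (purple). Each point is a library and each bar the mean of 2 libraries. ASCs exceed EpiSCs most at Nodal, Lefty2 and Lefty1, by less at Mixl1 and Fgf5, and match them at Otx2 and Pou3f1 with the 30% limit plotted. Some ESC widths are cut off 10 kb from the start.

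The promoters of Nodal, Lefty1 and Lefty2 were the poorest in CpG of the 10. Nodal had 20 CpG sites in its 1101 bp window, Lefty1 19 and Lefty2 22, with observed-to-expected CpG ratios of 0.299, 0.247 and 0.298, and only 11.8% to 16.5% of all tested promoters had fewer sites. Pou3f1, the graded promoter, had 30 sites and a ratio of 0.37. The unmethylated promoters of Eomes, Fgf5, Otx2, Wnt3 and T had 41 to 77 sites and ratios of 0.568 to 0.715, as did Mixl1 with 60 sites and 0.65. Of the 10 genes, 6 had an entry among the RefSeq promoter sequences (250 bases before to 50 after the start), and Pou3f1, Lefty1, Lefty2 and Mixl1 had none. A TATAAA, searched on both strands, was found in entries of Fgf5 and Otx2, and occurs in 13.6% of all 32851 promoters. The TCF/LEF letters CTTTGAT and the FOXH1 letters AATCCACA, which occur in 3.73% and 0.855% of all promoters, were found in none of the 9 entries of these genes.

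Other genes of the same pathways were taken from lists chosen by name, whose shares are read beside the 24.3% of promoters and 54.7% of gene bodies lower in ASCs than in EpiSCs over all genes. In the Nodal pathway list, 1 of 12 tested promoters (Gdf1) and 9 of 16 gene bodies were lower in ASCs than in EpiSCs, with none higher. The largest gene body differences were at Gdf3, a TGF-beta family ligand, with 8.33% and 7.86% in ASCs against 92.4% and 91.8% in EpiSCs, at Gdf1, a partner of Nodal, with 9.4% and 10.4% against 90.5% and 92%, and at Foxh1, the transcription factor of the Nodal response, with 4.17% and 4.23% against 57.9% and 56.3%. In ESCs these 3 read between 0% and 6.94%. The list's median gene body difference was 20.4 points lower in ASCs, beside 21 points lower over all gene bodies.

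In the Wnt pathway list, 3 of 16 promoters and 8 of 16 gene bodies were lower in ASCs than in EpiSCs and none was higher. The promoter of Porcn, the X-linked enzyme that Wnt ligands need for secretion, read 0% in the 4 ASC and ESC libraries and 54% and 71.4% in EpiSCs. The study cites an inactive X chromosome in female EpiSCs and describes female ASCs as showing no X-inactivation. Whether this bears on the X-linked promoters of Porcn, and of Sox3 below, was not tested. Wnt3a read 3.68% and 0.948% in ASCs against 25.1% and 24.8% in EpiSCs, and Wnt5a 27.4% and 20.9% against 43.9% and 47.8%. The median over the list's promoters was 5.95 points lower in ASCs, beside 6.7 points lower over all promoters.

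In the list of FGF pathway and primed epiblast genes, 3 of 13 promoters were lower in ASCs than in EpiSCs and 1 was higher, beside 24.3% and 0.159% of all. Sox3, an X-linked transcription factor gene, read 1.13% and 0% in ASCs against 28.7% and 38.2% in EpiSCs. Lin28b, an RNA-binding inhibitor of let-7, went the other way, with 1.41% and 1.56% in EpiSCs, 33.9% and 30.2% in ASCs and 7.32% and 16.3% in ESCs. Of the primitive streak and mesendoderm list, 2 of 12 promoters were lower (Msgn1, with 47.1% and 50.9% against 92.1% and 88.9%, and Mesp2, with 59.6% and 51.4% against 85.3% and 74.7%) and 1 was higher, that of the transcription factor Hand1, with 29.6% and 25.5% in ASCs, 4.94% and 6.18% in EpiSCs and 7.66% and 6.69% in ESCs. In gene bodies, 8 of 14 and 5 of 13 of these lists were lower in ASCs than in EpiSCs, beside 54.7% of all. The median promoter differences of the lists were 1.76 and 0.787 points lower in ASCs, beside 6.7 points lower over all promoters.

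Among all tested promoters, those closest to Nodal over the 6 libraries were Vars, Snx18 and Mybl2, at a root mean square distance of 0.711, 0.783 and 0.902 points. Closest to Lefty2 were Abcb1a, Sec14l4 and Duoxa1, at 6.18, 6.7 and 6.89 points. The distances of Nodal and Lefty2 cannot be compared, since the Nodal promoter was almost unmethylated in ASCs and ESCs and that of Lefty2 was not.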

How the data were processed

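DNA of 6 libraries was bisulfite converted and sequenced after post-bisulfite adaptor tagging. Per the labels and the study's methods, the authors trimmed reads (Trim Galore), aligned them to GRCm38/mm10 (Bismark 0.16.3), removed duplicates and merged both strands of each CpG with MethPipe, of a version that is not stated. The deposited files give each CpG's methylated fraction and its read count, with no header; fraction times count, rounded, gave methylated reads.

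Reads were summed over promoters, gene bodies (GENCODE M21) and 2 kb tiles of chromosomes 1 to 19 and X, requiring 40 CpG observations in each library. A CpG observation is 1 read over 1 site, so sites on 1 read are not independent, and intervals or limits at 0 (3 counts) cover counting error only. Groups were compared with a quasi-binomial model whose Pearson dispersion was moderated by limma 3.58.1 (R 4.3.3), with two-sided tests and Benjamini-Hochberg adjustment over all regions of a kind. The dispersion shared over all regions counted for 145 degrees of freedom in tiles, 8.7 in gene bodies and 7.39 in promoters. A tile's p-value thus rests little on the spread between its own libraries. The model was also run on simulated tiles, of which few were changed, in EpiSCs only. None of them started unmethylated or fully methylated. That setting differs from these data, where most tiles differed between groups, so the run does not vouch for the calls given here. The listed CpG positions of the loci were checked against the genome sequence, and none of 94807 missed a CG.

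The genes and the pathway lists were chosen with earlier results of these data known. Named were all 10 genes, the tile of the largest called ASC and EpiSC difference at each locus, tiles called higher in ASCs than in EpiSCs, the 3 tiles highest in ESCs, up to 3 called genes of each list and the 3 promoters nearest to each called one. Tiles chosen after their values were seen were those inside Lefty1, Lefty2, Nodal, Wnt3, Eomes and T other than these, those near the Lefty genes, the tile 31.0 kb after Nodal and that 12.1 kb after Otx2. Alternatives were other read minimums, windows, thresholds, limma on M values, a dispersion floor, a replicate block and each library left out. Some results are not reported here.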

Additional observations from a re-analysis of the deposited data

How the results depend on the processing

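Each group had 2 libraries at about 3 reads per CpG. Promoters of few CpG sites thus rest on few observations per library, 66 to 91 at Nodal, 81 to 132 at Lefty1 and 86 to 119 at Lefty2. Differences of a few points were not detectable there. Conversion efficiency was not analysed here. Lefty1 and Lefty2 share sequence, and tiles under the read minimum were left out. Of the 172 alternative values for counts of called regions, 149 lay within 1.5 times the reported count. These include counts of promoters and gene bodies higher in ASCs than in EpiSCs, where no region was called at any setting. Of the alternative values for single differences, 26 lost the call, 18 of them with 40 points required. No called difference of a single promoter, gene body or named tile reversed. Only another window, start or gene body, or a library left out, could show a reversal. The test, threshold and read minimum do not alter the difference between mean levels.

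Both the size required and the minimum of observations changed many counts. The counts below are of the regions of the genes followed here. No share over all regions is given for the alternative settings, except for gene bodies without their first 2 kb. Whether the regions of these genes changed more or less than all regions at the same setting was thus not tested. With no minimum difference, 5 promoters were lower in ASCs than in EpiSCs, 1 higher in ASCs than in ESCs and 5 higher in EpiSCs than in ESCs, 7 gene bodies were lower in ASCs than in EpiSCs and 8 higher than in ESCs, and 5 tiles were higher in ASCs than in EpiSCs. At 40 points these were 1 promoter lower in ASCs and 1 higher in EpiSCs, 2 gene bodies lower in ASCs, 0 higher in ASCs than in ESCs and 4 higher in EpiSCs than in ESCs, and 83 tiles lower in ASCs than in EpiSCs. At a minimum of 100 observations, 7 promoters and 175 tiles were left: 0 promoters were lower in ASCs (Nodal and Lefty2 were not tested) and 1 was higher in EpiSCs, with 97 tiles lower and 0 higher in ASCs than in EpiSCs, 115 higher in ASCs than in ESCs and 139 higher in EpiSCs. The window of -500 to +500 bp left 1 promoter lower in ASCs and 1 higher in EpiSCs. Gene bodies without their first 2 kb gave 7 lower in ASCs than in EpiSCs. Tiles shifted by 1 kb gave 2 higher in ASCs than in EpiSCs, and have no counterpart of the named tiles. The median ASC tile level moved from 60.3% to 62.3% at a minimum of 20 observations, 52.5% at 100 and 61.2% in shifted tiles, and at 100 the ESC and EpiSC medians were 14.6% and 90%.

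With each library left out in turn, promoters lower in ASCs than in EpiSCs ranged from 2 to 3 and promoters higher in EpiSCs than in ESCs from 3 to 4, the added one being Mixl1. Gene bodies ranged from 3 to 4 (ASCs lower than EpiSCs, losing Wnt3 without EpiSC replicate 1), 3 to 4 (ASCs higher than ESCs, losing Mixl1 without ASC replicate 2) and 7 to 8 (EpiSCs higher than ESCs, losing Eomes without EpiSC replicate 1). Tiles ranged from 260 to 283, 339 to 351 and 390 to 402, and those higher in ASCs than in EpiSCs from 1 to 2, with 2 without ASC replicate 2. Median levels ranged from 60% to 60.7%, 16.5% to 17.4% and 91.5% to 91.8%.

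The labels give the groups the same replicate numbers, but same-numbered libraries did not deviate together tile by tile over 445422 tiles (correlations of 0.00232, -0.00617 and -0.00065). A shift shared by all tiles would not show in these correlations, so they cannot exclude a pairing by number. With a replicate block the counts were 2, 0, 0 and 3 promoters, 4, 0, 4 and 8 gene bodies and 273, 1, 340 and 390 tiles, as without it, in the order lower in ASCs than in EpiSCs, higher in ASCs than in EpiSCs, higher in ASCs than in ESCs and higher in EpiSCs than in ESCs.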
